A study of Mus musculus with 6 samples.

Results

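The mitochondrial ribosomal proteins were examined in the brown adipose tissue (BAT) of mice lacking KRAP (KO) and of their wild-type littermates (WT). The group comprised every gene whose symbol is Mrpl or Mrps followed by a digit in the annotation of the array, as long as a probe set named that symbol alone, which gave 76 of the 18193 genes named in this way. The KO animals (KO1 to KO3) carried KRAP alleles in which part of the coding exons had been replaced by a neo cassette, the WT animals (WT1 to WT3) carried none, and KO1 and WT1, KO2 and WT2, and KO3 and WT3 were littermates. All 6 mice were 32 weeks old, were fed normal chow and came from a line backcrossed 6 times to C57BL6/J; the deletion is not restricted to a tissue. Total RNA of each animal was hybridised to its own Affymetrix mouse genome array, and signals are given as multiples of the median of the array. Because BAT was measured as a whole, fewer cells of a type and less RNA per cell cannot be told apart.

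Mitochondria keep their own ribosome, which translates the few messages of the mitochondrial genome, all of which encode core subunits of the respiratory chain and of ATP synthase. Its RNA is made inside the organelle, but its proteins are encoded in the nucleus, made in the cytosol and imported. Those named Mrpl belong to the large subunit, which forms peptide bonds, and most of those named Mrps to the small subunit, which reads the message. Some are homologues of bacterial ribosomal proteins, and others are found only in mitochondria. BAT is unusually rich in mitochondria, since its adipocytes burn fuel to make heat through the uncoupling protein Ucp1. Among the 76 genes, 49 belong to the large subunit and 26 to the small subunit by present structural assignments. The last gene, Mrps36, keeps its ribosomal name but encodes a subunit of the 2-oxoglutarate dehydrogenase complex.

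The genes lay on 17 chromosomes, with 11 on chromosome 11 and 8 on chromosome 17. What they share at their starts was read from RefSeq promoters (GRCm38.p6, 250 bases before to 50 bases after each start). For 67 of the 76 genes a promoter was given, 73 promoters in all, since some genes have several starts, and Mrpl4, Mrpl13, Mrpl15, Mrpl19, Mrpl38, Mrpl54, Mrps28, Mrps34 and Mrps35 were not matched. Searched on both strands, the NRF1 motif GCATGCGC occurred in 8 member promoters (10.96%) against 3.51% of 21262 promoters of protein-coding genes. The ETS motif CGGAAGT occurred in 17 (23.3%) against 8.39%, and the YY1 motif AAGATGGC in 12 (16.4%) against 3.05%. At least 1 of these motifs, which are those of regulators known for nuclear genes of mitochondrial proteins, was present in 32 of the 73 promoters (43.8%), against 13.8% of the promoters of protein-coding genes. The ERRA motif CAAGGTCA was present in 2 (2.74% against 1.34%) and the SP1 motif GGGCGG in 39 (53.4% against 46.2%). The NRF1 letters can overlap with their own reverse complement, so promoters rather than matches were counted. The motifs are short, and a match is only a description of the letters in this window. The promoters of 5 genes described below are shown, with capitals for the NRF1, ETS and YY1 motifs only. Of these, 3 hold 2 such motifs, while those of the 2 genes with the largest negative and the largest positive log2 difference (KO minus WT) hold none of the NRF1, ETS and YY1 motifs. They are Mrps6 (chr16:92058086-92058385, plus strand), Mrpl34 (chr8:71464676-71464975, plus strand), Mrpl33 (chr5:31613701-31614000, plus strand, with NRF1 and then ETS), Mrps18a (chr17:46110754-46111053, plus strand, with ETS and then YY1) and Mrps27 (chr13:99344536-99344835, plus strand, with ETS and then YY1).
Mrps6: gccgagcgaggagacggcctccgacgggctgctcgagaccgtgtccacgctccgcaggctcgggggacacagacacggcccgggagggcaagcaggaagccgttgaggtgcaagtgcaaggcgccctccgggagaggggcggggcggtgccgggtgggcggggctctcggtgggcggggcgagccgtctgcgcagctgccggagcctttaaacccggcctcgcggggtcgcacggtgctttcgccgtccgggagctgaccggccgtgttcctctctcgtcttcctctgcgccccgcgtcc
Mrpl34: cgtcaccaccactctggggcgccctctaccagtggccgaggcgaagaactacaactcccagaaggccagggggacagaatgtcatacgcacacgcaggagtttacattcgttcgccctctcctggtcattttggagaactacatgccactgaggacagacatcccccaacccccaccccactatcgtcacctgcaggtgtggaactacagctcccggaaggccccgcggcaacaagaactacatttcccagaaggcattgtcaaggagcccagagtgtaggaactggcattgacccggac
Mrpl33: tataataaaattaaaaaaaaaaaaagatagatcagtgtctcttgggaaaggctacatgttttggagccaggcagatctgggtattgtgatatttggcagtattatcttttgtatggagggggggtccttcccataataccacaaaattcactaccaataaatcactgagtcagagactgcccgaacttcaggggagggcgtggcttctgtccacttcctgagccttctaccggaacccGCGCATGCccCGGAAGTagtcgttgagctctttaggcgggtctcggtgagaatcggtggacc
Mrps18a: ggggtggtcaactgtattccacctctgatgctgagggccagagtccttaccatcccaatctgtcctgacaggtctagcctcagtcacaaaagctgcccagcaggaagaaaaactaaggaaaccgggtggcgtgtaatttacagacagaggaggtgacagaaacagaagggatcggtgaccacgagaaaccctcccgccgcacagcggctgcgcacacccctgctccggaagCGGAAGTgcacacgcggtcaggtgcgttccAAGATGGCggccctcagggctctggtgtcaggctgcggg
Mrps27: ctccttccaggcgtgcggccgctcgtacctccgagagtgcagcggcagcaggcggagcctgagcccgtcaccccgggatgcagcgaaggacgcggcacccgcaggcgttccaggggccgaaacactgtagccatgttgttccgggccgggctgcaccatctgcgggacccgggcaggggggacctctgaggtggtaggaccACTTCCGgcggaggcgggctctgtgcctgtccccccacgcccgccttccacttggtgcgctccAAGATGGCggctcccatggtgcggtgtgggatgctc

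Many of these genes also started back to back with another gene. A second gene on the opposite strand, with its start within 1000 bases and running the other way, was found for 23 of the 67 genes (34.3%), against 8.48% of 17491 protein-coding genes. Mrps11 of the small subunit and Mrpl46 of the large subunit were each other's partner, with starts 42 bases apart, and had log2 differences between KO and WT of 0.09 and -0.04. Some other partners were themselves mitochondrial genes. Sars2, the mitochondrial seryl-tRNA synthetase, lay 147 bases from Mrps12. Twnk, the helicase of mitochondrial DNA, lay 116 bases from Mrpl43, and Ndufb5 of complex I 308 bases from Mrpl47. Most partners, such as Tcp1, Psma2 and Hira, were not mitochondrial genes. The median number of CpG pairs in a promoter was 21 among the members and 13 among protein-coding genes. The median log2 difference between KO and WT of genes with and without a motif was -0.02 and -0.05 for NRF1, -0.06 and -0.03 for ETS, -0.01 and -0.05 for YY1, and -0.01 and -0.09 for SP1, and these values were not tested against each other.

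**Figure D1:**
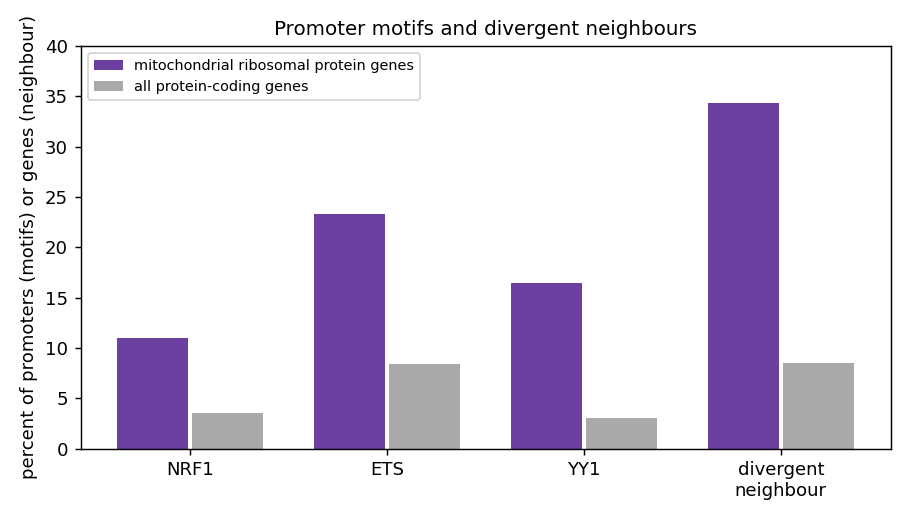
Percent of promoters that hold the NRF1, ETS or YY1 motif, and percent of genes with a divergent neighbour within 1000 bases, for the mitochondrial ribosomal protein genes (purple) and all protein-coding genes (grey). The purple bars stand at 10.96%, 23.3%, 16.4% and 34.3%, and the grey bars at 3.51%, 8.39%, 3.05% and 8.48%.

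The 6 arrays carried the marks of BAT, and a few of them stood apart. Ucp1 read between 342.6 and 624.1 in KO and between 345.2 and 655.3 in WT, and 9 measured brown adipocyte markers summed to 1347 to 2007 in KO and 1377 to 1942 in WT. Of these 9, 2 had an unadjusted p under 0.05 and none passed the adjusted test, with a median log2 difference of 0.03. For white adipocyte markers the median log2 difference was -1.42, and 6 of 9 tested had an unadjusted p under 0.05, although their sums were 601.3 to 699.0 in KO and 625.3 to 679.5 in WT, and none of the 9 passed the adjusted test. The part of both lists in the values of the members was not tested. The 10 skeletal muscle markers summed to 55.7, 972.9 and 35.3 in KO1 to KO3 and to 127.1, 85.0 and 406.4 in WT1 to WT3, so KO2 and WT3 stood high. Hepatocyte markers, with 5 of 8 below the filter, summed to 60.1 in KO3 and to 3.05 to 4.28 on the other arrays. Sums of macrophage markers were 108.0 to 122.7 in KO and 88.4 to 122.1 in WT, and those of endothelial markers 77.1 to 90.3 in KO and 84.2 to 100.3 in WT. Lymphocyte markers, with only 2 of 8 above the filter, summed to 7.70 to 38.8 in KO and 13.2 to 34.3 in WT. Erythroid markers, with only 1 of 4 above it, summed to 5.97 to 14.2 in KO and 6.60 to 9.96 in WT. The ratio of 3' to 5' actin signal, a measure of RNA integrity, was 1.95, 2.26 and 2.58 in KO1 to KO3 and 2.06, 3.80 and 1.91 in WT1 to WT3, and stood apart in WT2. The 1 probe set of KRAP (Itprid2) read 47.0, 35.1 and 41.4 in KO and 55.3, 56.6 and 42.2 in WT, and since its place relative to the deleted exons is not known here it does not check the labels.

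All 76 genes were measured well above the filter. Their mean signals over the 6 arrays lay between 8.25 and 207.5, none had a signal at the floor, and all 76 were tested. Signals of different probe sets also reflect their probes, so the genes are not ordered here by level.

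The question was whether the set of genes for the mitochondrial ribosome was expressed differently in KRAP-deficient BAT. It showed no change that passed a test. With limma and the littermate pair as a block, 0 of the 76 genes were below an adjusted p of 0.05, and the lowest adjusted p among them was 0.602. Over all 22356 tested probe sets the share below it was likewise 0% (lowest 0.117). An unadjusted p under 0.05 was also found for 0 of the 76 (smallest 0.0568). Of all 11140 tested genes 8.2% had one, and of the genes with a mean signal above 5, 5.76%. The median log2 difference between KO and WT was -0.03 for the members and -0.07 for all genes tested. Single members ranged from -0.49 to 0.35, with 45 below and 31 above 0. Those below 0 were 59.2% of the members, against 61.5% of all genes tested.

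The members also differed little from each other. The SD of their log2 differences was 0.161, against 0.349 for all genes tested and 0.273 for the 6524 genes with a mean signal above 5. No member was past 1.5-fold (0 of 76), while 8.56% of all genes and 4.63% of the genes with a mean signal above 5 were. For 41 of 76 members (53.9%) the whole 95% confidence interval lay within 1.5-fold, against 24.3% of all genes and 31.7% of the genes with a mean signal above 5. For 75 of 76 it lay within 2-fold, Mrps6 being the exception. The interval of every member included 0.

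**Figure D2:**
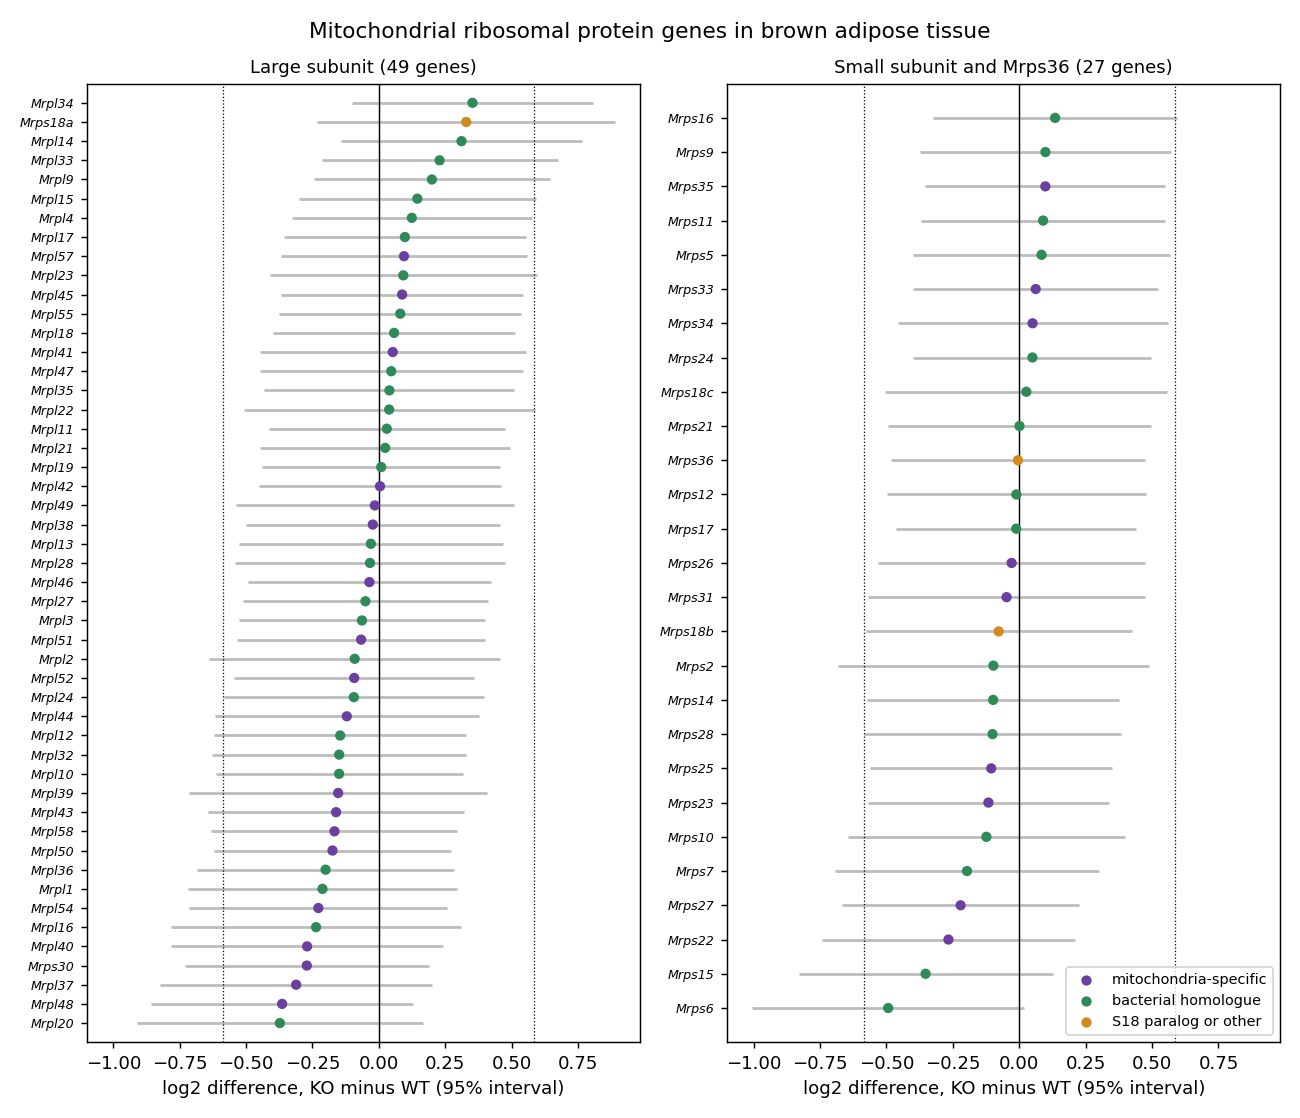
Log2 difference between KO and WT for each of the 76 genes with its 95% confidence interval (limma, littermate pair as a block, n = 3 pairs), for the large subunit at the left and the small subunit with Mrps36 at the right. Dotted lines mark 1.5-fold. The points run from -0.49 (Mrps6) to 0.35 (Mrpl34), and every interval crosses 0.

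The direction of the members within a pair followed the scaling of the arrays. With each array divided by its median, their median log2 difference was -0.004 in pair 1, -0.28 in pair 2 and 0.11 in pair 3, and those of all genes tested were -0.03, -0.24 and 0.06. In pair 1 the KO animal was lower for 38 of 76 members, in pair 2 for 67 and in pair 3 for 15, against 53.2%, 71.8% and 42.9% of all genes. With the intensities as deposited the member medians were 0.10, 0.003 and -0.09, so that pair 2 no longer leaned and pair 3 leaned the other way, and after quantile normalization they were 0.03, -0.001 and 0.02. Set against the median of all genes of the same pair, the members differed by 0.03, -0.04 and 0.05 both with the median scaling and as deposited, and by 0.04, 0.03 and 0.02 after quantile normalization. Under median scaling, of the 76 members, 18 kept 1 direction over the 3 pairs and 58 did not. The KO animal was lower in all 3 pairs for 12 members (15.8%, against 19.7% of all genes) and higher in all 3 for 6 (7.89%, against 10.9% of all genes). Without pair 3, the number lower in every pair was 35, and without pair 2 the number higher in every pair was 35. The split also moved with the scaling. With the intensities as deposited, 15 were lower and 10 higher in every pair, against 17.5% and 14.0% of all genes. After quantile normalization, 16 were lower and 20 higher, against 18.2% and 16.8% of all genes. Under all 3 scalings, 7 members were lower in every pair (Mrpl20, Mrpl48, Mrps6, Mrps15, Mrps22, Mrps27 and Mrps30) and 5 were higher (Mrpl9, Mrpl14, Mrpl15, Mrpl33 and Mrpl34). No share over all genes is given here for these counts or for those with a pair left out. Between groups of animals, under median scaling the 3 KO signals lay entirely below the 3 WT signals for 1 member, against 7.87% of all genes, and entirely above them for 2 members, against 4.43%. As deposited these numbers were 7 and 6 (6.64% and 5.52% of all genes), and after quantile normalization 4 and 6 (6.83% and 6.54%), with Mrps6 below and Mrpl9 and Mrpl34 above in each.

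Which arrays were low for the members also followed the scaling. Centred on the mean of each gene under median scaling, the median member stood at 0.11, -0.14 and -0.02 in KO1 to KO3 and at 0.09, 0.13 and -0.14 in WT1 to WT3, so KO2 and WT3 were the low arrays under this scaling. These were also the arrays with the highest divisors, with medians of 20.1 and 20.4 against 16.5 to 17.9 on the others, and with the intensities as deposited the median member stood at -0.001 in KO2 and 0.03 in WT3. Under median scaling the lowest of the 6 signals was in KO2 for 30 members and in WT3 for 25, together 72.4% of the members, against 40.9% of all genes, and the highest was in WT2 for 30 (39.5%, against 36.7% of all genes). As deposited, the lowest signal was in KO2 for 12 and in WT3 for 6 members, and the highest in WT2 for 17. KO2 and WT3 were the arrays with the highest sums of skeletal muscle markers, 972.9 and 406.4, and the lowest sums of brown adipocyte markers, 1347 and 1377, and WT2 was the array with the highest actin ratio. The part of these markers and of RNA integrity in the member signals was not tested. In fits with no block for the pair, the median log2 difference of the members was -0.07 when KO2 and WT3 were left out and 0.02 when WT2 was, with 0 members at an unadjusted p under 0.05 in either case. These settings were chosen after seeing the data.

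**Figure D3:**
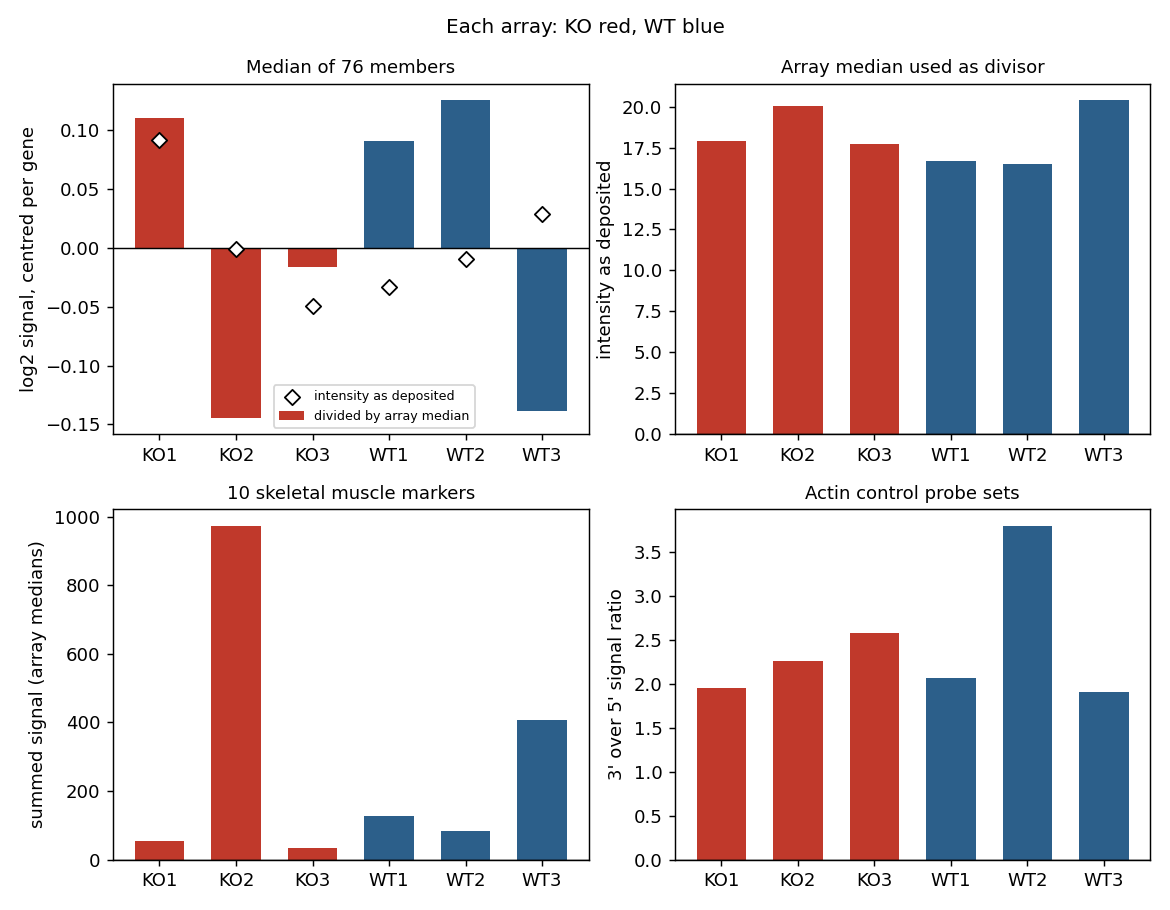
Each array, with KO1 to KO3 in red and WT1 to WT3 in blue. The panels give the median over the 76 members of the log2 signal centred per gene (bars, divided by the array median, and diamonds, as deposited), the array median itself, the summed signal of 10 skeletal muscle markers and the ratio of 3' to 5' actin signal. KO2 and WT3 have the lowest bars for the members (-0.14 each) but not the lowest diamonds (-0.001 and 0.03), and the highest array medians (20.1 and 20.4) and muscle sums (972.9 and 406.4).

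In the small subunit, Mrps6 gave the largest difference of all members. Mrps6 is the homologue of a bacterial protein on the platform of the small subunit, where it pairs with the protein whose homologue is Mrps18c. It lies on chromosome 16 (chr16:92058336-92112227), and its promoter is the first shown above. Its brightest probe set read 44.2, 39.3 and 42.7 in KO1 to KO3, against 52.5, 72.1 and 54.7 in WT1 to WT3. All 3 KO signals were below all 3 WT signals, with means of 42.1 ± 2.51 in KO and 59.8 ± 10.7 in WT (SD, n = 3). The log2 difference was -0.49, with a 95% confidence interval (CI) of -1.01 to 0.02 (adjusted p = 0.602). The other probe set of Mrps6 read 20.6, 25.4 and 21.9 in KO and 30.3, 44.6 and 33.0 in WT, again with no overlap. Its log2 difference was -0.65 (95% CI -1.11 to -0.20, adjusted p = 0.468, unadjusted p = 0.0123). The highest WT signal on both probe sets was in WT2, the array with the actin ratio of 3.80. On the brightest probe set the log2 difference was -0.35 without WT2 and with no block for the pair, and -0.30 without pair 2.

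Under median scaling, further genes of the small subunit were lower in KO in all 3 pairs, though their groups overlapped. Mrps15, the homologue of a bacterial protein that binds ribosomal RNA early in assembly, read 49.4, 34.2 and 39.8 in KO and 59.4, 52.5 and 44.9 in WT. Its log2 difference was -0.35 (95% CI -0.83 to 0.13, adjusted p = 0.678) and -0.48 on a second probe set. KO1 was above WT3 on the brightest probe set, so the difference showed within pairs rather than between the groups. Mrps22, a protein found only in mitochondria whose human gene is mutated in a mitochondrial disease of infancy, read 28.3, 20.2 and 20.8 in KO and 37.2, 26.6 and 21.0 in WT. The KO over WT ratios were 0.762, 0.759 and 0.994, so pair 3 hardly took part under median scaling. The median of all genes in pair 3 was 0.06 under that scaling and -0.14 as deposited, so the part of each pair depends on the scaling. Mrps27, a pentatricopeptide repeat protein of the small subunit, read 7.16, 8.18 and 7.48 in KO and 7.96, 10.04 and 8.67 in WT, a log2 difference of -0.22. Mrps23 and Mrps25 completed the 6 genes of this subunit, with log2 differences of -0.12 and -0.11. These 6 were 23.1% of the subunit, against 19.7% of all genes. As deposited 4 were lower in every pair, against 17.5% of all genes, and after quantile normalization 5 were, against 18.2%. Mrps23 and Mrps25 were not among them in either case. Under median scaling no gene of the small subunit was higher in KO in all 3 pairs, against 10.9% of all genes. As deposited 1 (Mrps9) was, against 14.0%, and after quantile normalization 8 were, against 16.8%. The median log2 difference of the small subunit under median scaling was -0.04 over 26 genes.

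In the large subunit, 6 genes were lower and 6 higher in KO in all 3 pairs under median scaling, against 19.7% and 10.9% of all genes. As deposited 11 were lower and 9 higher, against 17.5% and 14.0% of all genes. After quantile normalization 11 were lower and 12 higher, against 18.2% and 16.8%. Under median scaling the median log2 difference over 49 genes was -0.03. The largest negative difference was that of Mrpl20, the homologue of a bacterial protein needed early in assembly of the large subunit. It read 39.8, 27.7 and 25.9 in KO and 43.0, 49.4 and 29.2 in WT, with a log2 difference of -0.37 (95% CI -0.91 to 0.17, adjusted p = 0.696). Most of this difference under median scaling lay in pair 2, where the KO over WT ratio was 0.561, against 0.926 and 0.886 in pairs 1 and 3. Mrpl48, a protein found only in mitochondria, read 40.3, 23.2 and 27.3 in KO and 45.8, 37.3 and 31.9 in WT, with a log2 difference of -0.36 (95% CI -0.86 to 0.13, adjusted p = 0.676). Here too pair 2 was apart under median scaling, with a ratio of 0.622 against 0.880 and 0.857. All genes leaned lower in pair 2 under that scaling (median -0.24), but not as deposited (0.04). How far pair 2 stood apart thus depends on the scaling.

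Mrpl37 and Mrps30 are likewise found only in mitochondria, and Mrps30 sits in the large subunit in spite of its name. Mrpl37 read 11.6, 8.13 and 7.87 in KO and 12.1, 13.1 and 8.96 in WT, a log2 difference of -0.31 with overlapping groups. Mrps30 read 19.3, 17.8 and 17.4 in KO and 23.5, 23.9 and 18.6 in WT, a log2 difference of -0.27 (95% CI -0.73 to 0.19). Only KO1 reached the lowest WT signal under median scaling. Mrpl50 and Mrpl58, the second of which rescues stalled ribosomes by releasing the peptide, were the other genes lower in all 3 pairs under median scaling, with log2 differences of -0.17 each.

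Under median scaling, the 6 genes that were higher in KO in every pair were homologues of bacterial proteins of the large subunit. The 10 that were so with the intensities as deposited held 5 of these, without Mrpl4, and included Mrps9 of the small subunit and Mrpl41, which is found only in mitochondria. Mrpl34, a small basic protein embedded in ribosomal RNA, whose gene lies at chr8:71464926-71465753, read 90.1, 76.2 and 84.7 in KO, against 64.6, 65.8 and 65.8 in WT. The groups did not overlap, and the means were 83.7 ± 6.99 in KO and 65.4 ± 0.709 in WT (SD, n = 3). The log2 difference was 0.35 (95% CI -0.10 to 0.81, adjusted p = 0.663), with KO over WT ratios of 1.40, 1.16 and 1.29. Under median scaling the WT signals were thus much closer to each other than the KO signals were. The divisors were 16.7, 16.5 and 20.4 in WT1 to WT3, and this closeness does not hold for the intensities as deposited. On a dim probe set of Mrpl34 the log2 difference was -0.02 (3.40 ± 0.688 in KO and 3.46 ± 0.771 in WT, SD, n = 3). As the mean over probe sets of the gene it was 0.17. Mrpl14, which lies where the subunits meet and is the docking site of a factor that keeps them apart during assembly, read 33.5, 24.5 and 27.4 in KO and 24.6, 21.1 and 22.7 in WT. Its log2 difference was 0.31 (95% CI -0.14 to 0.76, adjusted p = 0.697), and KO2 and WT1 were nearly equal, which made the groups touch.

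Mrpl33 and Mrpl9 had smaller differences, which were of even size over the pairs under median scaling. The scaling shifts all genes of a pair, so this evenness does not carry over to the intensities as deposited. Mrpl33 read 17.6, 23.9 and 26.8 in KO and 14.7, 21.0 and 22.6 in WT, so the pairs differed more from each other than the genotypes did, while the KO over WT ratios were 1.20, 1.14 and 1.18. The log2 difference was 0.23 (95% CI -0.22 to 0.67). Mrpl9 read 50.8, 46.8 and 49.4 in KO and 46.1, 39.7 and 42.5 in WT, with no overlap and a log2 difference of 0.20 (95% CI -0.25 to 0.64). Mrpl15 and Mrpl4, the second of which lines the tunnel through which the new peptide leaves, had log2 differences of 0.14 and 0.12.

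**Figure D4:**
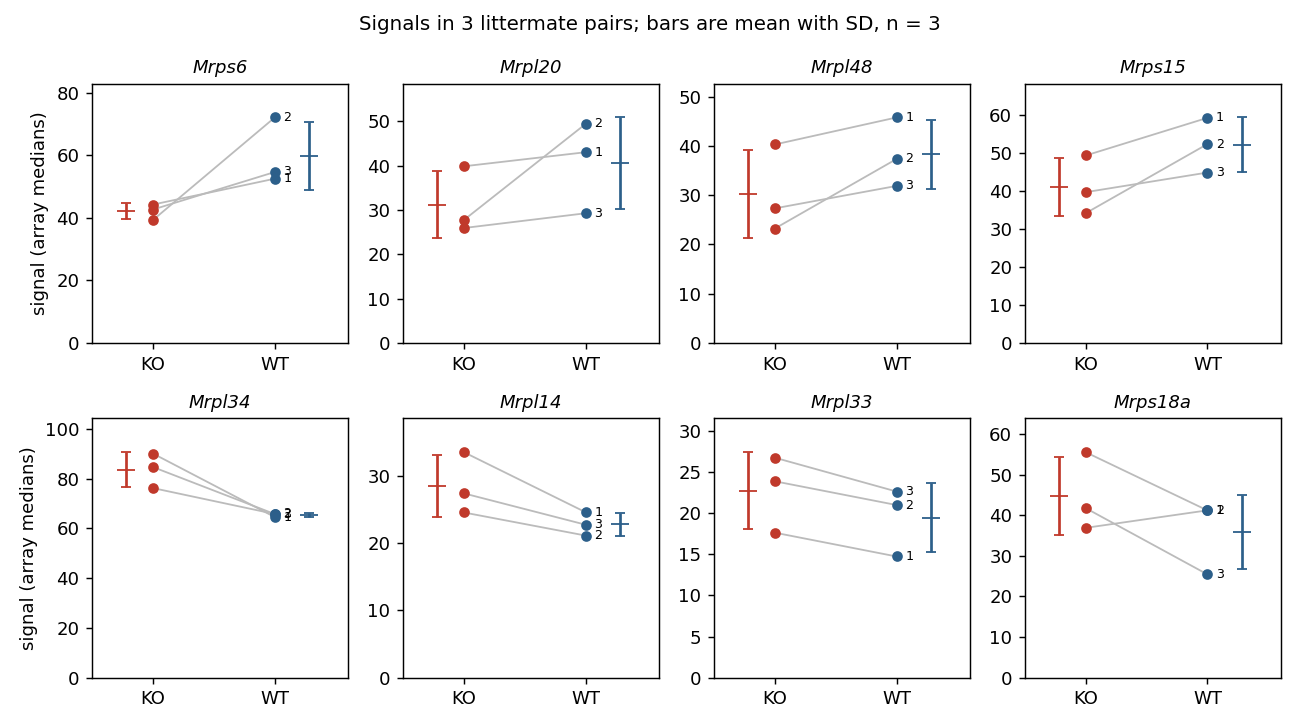
Signals of 8 members as multiples of the array median, on linear axes that start at 0, with KO animals at the left in red and WT animals at the right in blue. Littermates are joined by a grey line that ends in the number of the pair, and mean and SD are drawn beside the points (n = 3). Mrps6 and Mrpl34 are the genes here without overlap between the groups, while for Mrpl20, Mrpl48, Mrps15, Mrpl14 and Mrpl33 the littermates differ in 1 direction although the groups overlap, as drawn under median scaling.

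The mammalian mitochondrial ribosome has 3 relatives of 1 bacterial protein, Mrps18a, Mrps18b and Mrps18c, of which Mrps18c takes the place of the bacterial protein, Mrps18b sits elsewhere in the small subunit and Mrps18a is in the large subunit. Mrps18a read 55.5, 36.9 and 41.7 in KO and 41.2, 41.2 and 25.4 in WT. Its log2 difference of 0.33 (95% CI -0.23 to 0.89, adjusted p = 0.738) was the second largest on the positive side, but the KO animal was the lower one in pair 2 (ratio 0.895) and the upper bound of its interval was the highest of all members. Mrps18b read 29.8, 25.4 and 29.4 in KO and 29.1, 34.0 and 26.4 in WT, with a log2 difference of -0.08 that was 3.11e-04 after quantile normalization. Mrps18c read 55.9, 43.0 and 51.8 in KO and 49.5, 57 and 41.7 in WT, with a log2 difference of 0.03. With the intensities as deposited, the log2 differences in pairs 1 to 3 were 0.54, 0.12 and 0.52 for Mrps18a, 0.14, -0.14 and -0.05 for Mrps18b, and 0.28, -0.13 and 0.11 for Mrps18c. Differences between the paralogs were not tested.

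By the origin of the protein, the counts in 1 direction changed with the scaling. Under median scaling, of 28 genes for proteins found only in mitochondria, 9 were lower (32.1%) and 0 higher in KO in all 3 pairs, with a median log2 difference of -0.10. Of 45 genes for homologues of bacterial proteins, 3 were lower (6.67%) and 6 higher (13.3%), with a median of 0.001. As deposited, the mitochondria-specific proteins had 7 lower and 1 higher and the bacterial homologues 8 lower and 8 higher, with medians of -0.04 and 0.06. After quantile normalization the counts were 8 lower and 4 higher against 8 lower and 15 higher, with medians of -0.04 and 0.07. Split further under median scaling, the mitochondria-specific proteins had medians of -0.12 in the large subunit (19 genes, 5 lower in all 3 pairs) and -0.05 in the small subunit (9 genes, 4 lower). The bacterial homologues had medians of 0.02 in the large subunit (29 genes, 1 lower and 6 higher) and -0.01 in the small subunit (16 genes, 2 lower and 0 higher). Under median scaling the counts are read against 19.7% lower and 10.9% higher among all genes. The shares of all genes were 17.5% and 14.0% as deposited, and 18.2% and 16.8% after quantile normalization. None of the genes counted passed the adjusted test, and the difference between the classes was not tested. Mrps36, which is no ribosomal protein, read 126.4, 91.5 and 107.9 in KO and 113.5, 110.2 and 100.7 in WT, a log2 difference of -0.004.

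For 42 of the 76 genes the array held more than 1 probe set, and these gave a check on the brightest one. A second probe set with a mean signal of 5 or over was present for 22 genes, of which 18 gave the same sign, with a median gap of 0.092 on the log2 scale. The largest gap was that of Mrpl50, at -0.17 on the brightest and -0.62 on the second probe set (9.28 ± 1.17 in KO and 14.4 ± 3.35 in WT, SD, n = 3). Over all 56 further probe sets tested, 6 had an unadjusted p under 0.05 and were lower in KO (10.7%, against 5.14% of all tested probe sets), 0 had one and were higher (against 3.41%), and 0 passed the adjusted test (smallest adjusted p 0.406). These 6 belonged to Mrpl35, Mrpl47, Mrpl48, Mrpl50, Mrpl57 and Mrps6. In each of them all KO signals were below all WT signals, which adds no support, since they were picked by their p. A dim probe set of Mrpl21 did not overlap the other way, with 3.01, 2.58 and 2.47 in KO and 2.06, 2.09 and 1.94 in WT. The 24 further probe sets with a mean signal under 5 had a median log2 difference of -0.15, with 18 below 0. Over all 11800 tested probe sets of that range the median was -0.03, with 54% below 0. The 32 brighter further probe sets had a median of -0.02.

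Mrpl47 shows how far probe sets of 1 gene could part. Mrpl47 is the homologue of a bacterial protein at the mouth of the exit tunnel, and its gene lies at chr3:32727497-32736755. Its brightest probe set read 27.5, 44.9 and 47.1 in KO and 32.7, 42.7 and 37.8 in WT, a log2 difference of 0.05 (95% CI -0.45 to 0.54), with the KO animal lower in pair 1 and higher in pairs 2 and 3. A dim probe set named for the same gene read 3.14, 2.64 and 1.93 in KO and 4.95, 4.94 and 3.40 in WT. There the groups did not overlap, and the log2 difference was -0.79 (95% CI -1.25 to -0.34, adjusted p = 0.406). Where this probe set lies in the gene is not known here, so whether it reads the same transcript as the bright one was not tested. Mrpl35 was alike, with 0.04 on the brightest probe set (61.3 ± 6.49 in KO and 59.6 ± 6.55 in WT) and -0.59 on a dim one (3.37 ± 0.709 in KO and 5.01 ± 0.435 in WT, SD, n = 3).

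The genes that build and serve the mitochondrial ribosome were counted in the same fit, under median scaling, and 0 of them passed the adjusted test. Counts in 1 direction over the pairs are read against 19.7% lower and 10.9% higher among all genes. Subunits of the ribosome under other symbols, Dap3, Ptcd3 and Chchd1 of the small subunit and Gadd45gip1 of the large subunit, had log2 differences of -0.04, -0.19, 0.13 and -0.12. Of 29 tested genes for assembly and modification of its RNA, the KO animal was lower in every pair for 2 and higher for 1 (median -0.10). Mettl15, a methyltransferase of the small subunit RNA, read 7.58, 7.64 and 8.54 in KO and 12.1, 13.7 and 11.3 in WT, with no overlap. Its log2 difference was -0.64 (95% CI -1.11 to -0.16, adjusted p = 0.486), larger in size than that of any member on its brightest probe set, and it was the 1 gene of this list with an unadjusted p under 0.05. Ptcd1, Mettl17 and Mrm1 had log2 differences of -0.46, 0.11 and 0.14.

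Of 13 tested translation factors, the KO animal was lower in every pair for 2 and higher for 0 (median -0.15), with Tsfm, the elongation factor that recharges the factor carrying aminoacyl-tRNA, at -0.46 (7.40 ± 2.61 in KO and 10.03 ± 2.41 in WT, SD, n = 3). Of 20 tested mitochondrial aminoacyl-tRNA synthetases and their relatives, the KO animal was lower in every pair for 7 and higher for 1 (35% and 5%, median -0.16). Among all genes these shares were 19.7% and 10.9%. Gatb, part of the amidotransferase that completes glutaminyl-tRNA, read 5.53, 6.09 and 5.36 in KO and 6.97, 11.01 and 6.55 in WT, a log2 difference of -0.49. Lars2, the leucyl-tRNA synthetase, read 19.1, 19.2 and 20.4 in KO and 22.9, 27.3 and 22.7 in WT, a log2 difference of -0.31. In both, all KO signals were below all WT signals. Sars2, which shares its start region with Mrps12, was the 1 gene of this list higher in all 3 pairs (3.97 ± 0.0668 in KO and 3.38 ± 0.471 in WT, SD, n = 3).

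Of 26 genes for transcription and processing of mitochondrial RNA, the KO animal was lower in every pair for 4 and higher for another 4 (median -0.03). Hsd17b10, a subunit of the enzyme that trims the ends of mitochondrial tRNAs, read 126.6, 108.4 and 135.6 in KO and 79.3, 86.8 and 90.8 in WT, with no overlap. Its log2 difference was 0.52 (95% CI 0.06 to 0.99, adjusted p = 0.545, unadjusted p = 0.0326). Prorp, the nuclease of the same enzyme, was at 0.30 and also did not overlap, while Mterf1a and Mterf2 were at -0.63 and -0.31. The product of the mitochondrial genome measured here, ND5, read 732.5, 784.7 and 818.2 in KO and 970.2, 794.2 and 762.0 in WT, a log2 difference of -0.11 with overlapping groups.

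The proteins of the cytosolic ribosome and of complex I, the first enzyme of the respiratory chain, were set beside the members for comparison. Under median scaling, 45 genes for proteins of the cytosolic ribosome were tested. In all 3 pairs, 3 were lower and 21 higher in KO (6.67% and 46.7%, against 19.7% and 10.9% of all genes). Their median log2 difference was 0.19, with pair medians of 0.30, 0.01 and 0.24. Of the 45, 2 had an unadjusted p under 0.05 and were higher, among them Rps15 (221.0 ± 27.4 in KO and 155.0 ± 35.7 in WT, SD, n = 3). Another 2 had one and were lower: Rps4l, and Rpl14, whose signals of 0.445 to 1.67 lay near the filter. Of 34 tested Nduf genes of complex I, 2 were lower and 1 higher in all 3 pairs (5.88% and 2.94%), with a median of -0.01 and pair medians of -0.01, -0.22 and 0.19. The members, with pair medians of -0.004, -0.28 and 0.11, were below the cytosolic ribosomal proteins in each pair. As deposited, the pair medians were 0.10, 0.003 and -0.09 for the members and 0.09, 0.06 and -0.01 for the complex I genes. Those of the cytosolic ribosomal proteins were 0.40, 0.29 and 0.04, and 28 of these genes were then higher in all 3 pairs, against 14.0% of all genes. None of these differences between lists was tested.

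**Figure D5:**
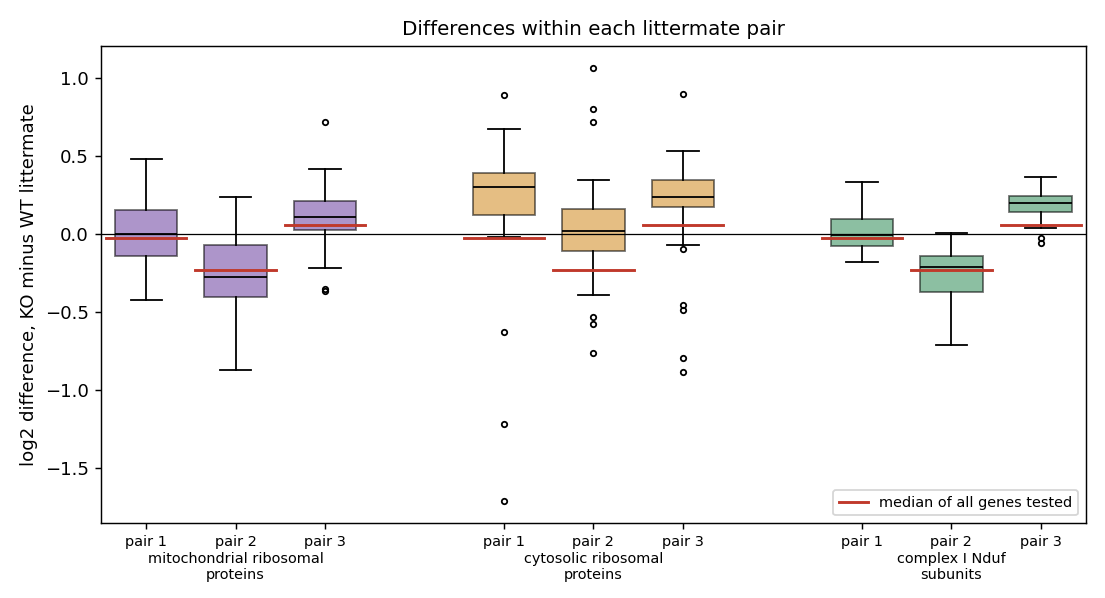
Log2 difference between KO and WT littermate in pairs 1 to 3, under median scaling, for the 76 mitochondrial ribosomal protein genes (purple), 45 cytosolic ribosomal protein genes (orange) and 34 Nduf genes of complex I (green). Boxes give quartiles and median, whiskers reach the last value within 1.5 box lengths, circles are values beyond them, and red lines are the medians of all genes tested. The purple medians are -0.004, -0.28 and 0.11, and would be 0.10, 0.003 and -0.09 with the intensities as deposited.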

How the data were processed

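Total RNA from BAT of 3 KO and 3 WT mice was hybridised by the authors to 1 array each. The authors deposited 1 linear signal intensity per probe set, made with GCOS according to the submitters' processing notes; no source used here gives its version or algorithm. Array medians (16.5 to 20.4) were used as divisors, following the methods of the study, and scaled values were set to at least 0.25 and put on the log2 scale. After 64 control probe sets were left out, 22356 of 45037 probe sets had a mean scaled signal above 1 and were tested.

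Names came from the platform annotation, in which 34945 probe sets carried 1 symbol, 932 several and 9160 none. Each gene is represented by the probe set with the highest mean signal. Probe sets that also named another gene were left out (4 for members), which left Mrpl30 and Mrpl53 without one. Suffixes _s_at and _x_at mark probes that can match several transcripts.

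Differences (KO minus WT) came from lmFit and eBayes of limma 3.58.1 (R 4.3.3) in a model of genotype plus littermate pair as a block, with p-values adjusted by Benjamini-Hochberg over all tested probe sets. The pairing comes from the design text, which calls the animals littermates. Deviations from group means correlated by 0.446, 0.0847 and 0.160 within pairs and by -0.359 to 0.281 across them. Lists are described by counts and medians, with no set test. Named were the 8 largest positive and 8 largest negative differences among members with 1 direction in all 3 pairs (only 6 were positive), members at an unadjusted p under 0.05, Mrps18a, Mrps18b, Mrps18c and Mrpl47, and up to 2 genes each way per further list. Other members were named after their values had been seen. The members and lists were chosen with earlier results of these data known.

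Alternatives were other scalings, floors, filters, a pseudocount, an intensity trend with robust prior, no pair block, each pair left out, and other probe sets per gene. The fit was tested on simulated data. Replicates are single animals, and the number of arrays limits the precision.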

Additional observations from a re-analysis of the deposited data

How the results depend on the processing

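No member passed an adjusted p of 0.05 under any of 17 alternatives (lowest adjusted p 0.192, limma with a mean signal above 5), and of 303 values of named members under these alternatives 8 changed sign, in 3 members. The 3 alternatives that use a mean signal above 5, leave out WT2, or leave out KO2 and WT3 were chosen after seeing the data. Over all probe sets, 123 passed with a pseudocount of 1, 40 with a mean signal above 2, 362 with one above 5, 311 with limma's intensity trend plus robust prior, and 0 to 255 when a pair was left out, the highest without pair 1. Members with an unadjusted p under 0.05 numbered 3 after quantile normalization (Mrpl14, Mrpl34, Mrps6), 5 without a filter, 5 with the intensity trend, 2 with plain probe sets, and 1 each (Mrps6) with the pseudocount, filters at 2 and 5, the mean over probe sets and no replicate block. The share of all genes with such a p under each alternative is not given here, so these counts are no result about the members. Members higher in every pair numbered 10 unscaled, against 14.0% of all genes, and 20 after quantile normalization, against 16.8%. With a pair left out, 6 to 35 were higher and 12 to 35 lower in every pair, with no share over all genes given here. With plain probe sets 2 members were past 1.5-fold (Mrpl35, Mrps6), and 0 to 1 with a pair left out (Mrps6 without pair 1). The member median changed sign, from -0.03 in the main fit to 0.03 unscaled and 0.03 after quantile normalization. With a pair left out it ran from -0.12 to 0.05. The SD of the member median over pairs, 0.198, was taken under median scaling and gives no spread for the other scalings. Mrps18b turned to 3.11e-04 after quantile normalization and 0.0203 without WT2, and spanned -0.19 to 0.0937 with a pair left out. Mrps18c spanned -0.12 to 0.24. Mrpl47 turned to -0.37 as the mean over its probe sets, which adds dim ones, to -0.0536 without KO2 and WT3, and spanned -0.0893 to 0.20. Apart from the mean over probe sets of Mrpl47, the causes were not tested.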
